A study of Mus musculus with 11 samples.

Results

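The 35 glycolysis and hypoxia genes were taken by symbol from the raw read counts of the 23284 genes listed for each library, and all 35 were found. Of them 24 encode glycolytic enzymes, a glucose transporter and the enzymes and carriers of pyruvate and lactate, and 11 belong to the hypoxia-inducible factor (HIF) pathway and its targets. RNA was measured in 266-6, a mouse pancreatic acinar cell line described as wild type for Arid1a, the gene of a DNA-binding subunit of the BAF (SWI/SNF) chromatin remodeller. Cells received non-targeting NT5 control siRNA or Arid1a siRNAs (25 nM; no concentration is stated for NT5) by reverse transfection for 48 h. All were starved of serum overnight and then given EGF at 40 ng/ml or its vehicle, 0.1% BSA, for 8 h. Control siRNA with vehicle has 2 libraries, and 3 each come from control siRNA with EGF, from Arid1a siRNAs with vehicle and from both agents together. Hypoxia names the gene list only: the labels state no oxygen level, and no group is described as kept at low oxygen.

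Glycolysis turns glucose into pyruvate in the cytosol. Cells that need ATP or carbon fast, or that lack oxygen, reduce the pyruvate to lactate and export it. HIF, a pair of an oxygen-labile alpha subunit (Hif1a or Epas1) and a stable partner, switches on many of these genes by binding a short DNA core in their promoters. The prolyl hydroxylases Egln1 and Egln3 mark the alpha subunit for destruction while oxygen is at hand. Growth factors, EGF among them, can raise several of the same genes in air, partly through MYC and HIF.

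Arid1a itself was at 292 and 399.9 CPM with control siRNA, 308, 263 and 300.2 CPM with control siRNA and EGF, 151, 157 and 127 CPM with Arid1a siRNAs, and 145, 122 and 152 CPM with both (CPM is a read count scaled to the size of its library, and "both" here and below stands for Arid1a siRNAs and EGF). No library with Arid1a siRNAs overlapped one with control siRNA, and the log2 change was -1.25 ± 0.13 (adjusted p = 2.36e-05) without EGF and -1.06 ± 0.12 (adjusted p = 2.85e-05) with it. Libraries held 10279763 to 19773007 counted reads, and 13343 genes had enough reads to be tested, among them 34 of the 35 members. Adm, the gene of the peptide adrenomedullin, had 0 to 7 reads a library and was not tested. The 12 acinar markers summed to 13964 to 18264 CPM, most of it Ctrb1 (11278 to 14335 CPM), with 1 of them at 0 throughout. In contrast, 4 ductal, 6 fibroblast, 4 immune and 4 endothelial markers summed to 2.89 to 4.48, 11.3 to 14.6, 5.01 to 9.30 and 38.6 to 55.3 CPM, and 3 of 4 islet markers were at 0. Cd68 made up most of the immune sum (4.96 to 9.23 CPM) and Tek most of the endothelial sum (37.0 to 52.3 CPM). Of 11 tested acinar markers, 2 rose and 6 fell with EGF under control siRNA and 1 rose and 4 fell under Arid1a siRNAs. With Arid1a siRNAs 4 of them rose and 4 fell without EGF, and 4 rose and 3 fell with it. Of all genes, 16.8% rose and 18.8% fell with EGF under control siRNA, and 13% and 10.4% under Arid1a siRNAs. Arid1a siRNAs raised 18.8% and lowered 20.1% of all genes without EGF, and 23.7% and 23.2% with it. Of the other cell types' markers, Kdr (endothelial) rose and Col1a2 (fibroblast) fell with Arid1a siRNAs with and without EGF, and Tek (endothelial) rose in the presence of EGF. Cd68 (immune) rose and Col3a1 (fibroblast) fell with EGF under either siRNA, and Krt19 (ductal) fell with EGF under control siRNA. Their part in the members' changes was not tested. In bulk RNA a change in fewer cells and a smaller change in each cell cannot be told apart, and no label says that replicates were separate cultures, so p-values measure the spread between these libraries.

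Changes are given with their sign on the log2 scale, ± the standard error of the fit, and are negative where the level fell. A gene was called when the Benjamini-Hochberg adjusted p of edgeR's quasi-likelihood test, adjusted over all 13343 genes, was under 0.05. With control siRNA, 9 of the 34 tested members rose with EGF and 6 fell, beside 16.8% and 18.8% of all genes called in those directions. With Arid1a siRNAs, 10 rose with EGF and 1 fell, beside 13% and 10.4% of all genes. Arid1a siRNAs without EGF raised 5 members and lowered 17, beside 18.8% and 20.1% of all genes, and the members' median log2 change was -0.28 against -0.01 over all genes. In the presence of EGF the siRNAs raised 6 and lowered 13, beside 23.7% and 23.2%, with a median of -0.22 against 0.00. That fit is unpaired. With the replicate number as a block within these 2 groups, 7 members rose and 17 fell. The share of all genes called in that fit was not counted, so these counts cannot be set against all genes. The EGF response itself differed between the siRNAs for 1 member, beside 0.562% of genes with a higher and 0.382% with a lower response under Arid1a siRNAs.

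Split by role, the 24 glycolytic, pyruvate and lactate members counted 7 risen and 4 fallen with EGF under control siRNA, and 6 and 0 under Arid1a siRNAs (for the 0 in edgeR, 1 member was lower at an unadjusted p under 0.05, 0 by DESeq2 and 1, Ldhb, by limma-voom). The EGF shares were 29.2% and 16.7%, beside 16.8% and 18.8% of all genes, and 25% and 0%, beside 13% and 10.4%. With Arid1a siRNAs 5 of these 24 rose and 11 fell without EGF, and 5 rose and 10 fell with it. Those are 20.8% and 45.8% beside 18.8% and 20.1% of all genes, and 20.8% and 41.7% beside 23.7% and 23.2%. Of the 10 tested HIF pathway members and targets, EGF raised 2 and lowered 2 under control siRNA and raised 4 and lowered 1 under Arid1a siRNAs. Arid1a siRNAs without EGF raised 0 of these 10 in edgeR (0 also at an unadjusted p under 0.05, by DESeq2 and by limma-voom) and lowered 6, and with EGF they raised 1 and lowered 3. Risen and fallen shares of the 10 were 20% and 20%, then 40% and 10%, with EGF, and 0% and 60%, then 10% and 30%, with Arid1a siRNAs. The shares of all genes in the same order are those given for the 24. The count for Arid1a siRNAs without EGF leaned on control siRNA replicate 2: without that library 12 members were called, 4 higher and 8 lower. The share of all genes called without that library was not counted, so it is not known whether the members lost more calls than other genes. The siRNA and EGF comparisons share libraries (control siRNA with vehicle, for instance, is the reference of 2 of them), so their values stand side by side below and are not counted against each other.

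**Figure D1:**
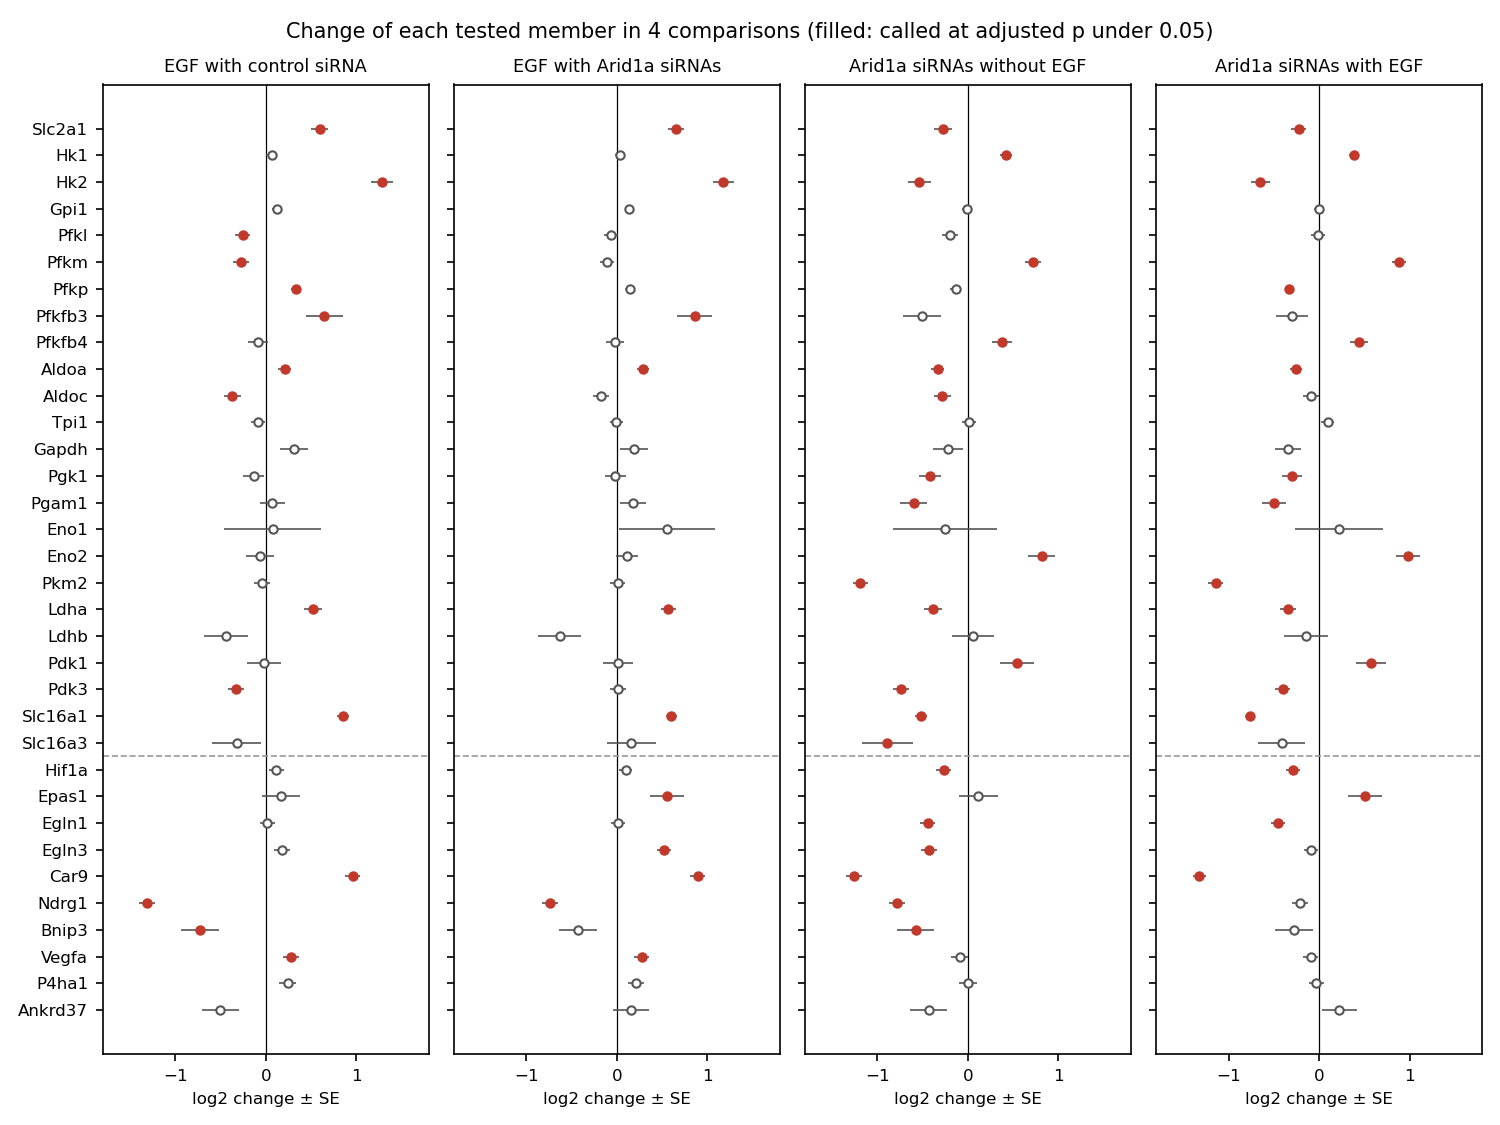
Log2 change (x axis, ± SE of the edgeR fit) of the 34 tested members (rows) in the 4 comparisons (panels); filled points are called and open points are not, and the dashed line parts 24 glycolytic, pyruvate and lactate members from 10 HIF pathway members and hypoxia targets. Hk2, Slc16a1 and Car9 lie right of 0 in both EGF panels and left of 0 in both siRNA panels, and Pkm2 lies near 0 with EGF and beyond -1 with Arid1a siRNAs.

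Slc2a1, Hk2, Aldoa, Ldha, Slc16a1 and Car9 were the 6 members called in all 4 comparisons. Each rose with EGF under both siRNAs and fell with Arid1a siRNAs with and without EGF. The EGF and siRNA comparisons share libraries, so the 4 calls of a gene are not independent of each other. How many of all genes were called in all 4 was not counted. The promoters of these 6 genes were looked at because HIF and MYC both bind a short core shared by many members. The letters ACGTG, one form of the HIF core, were searched on both strands in the 250 bases before each start in RefSeq (GRCm38.p6), where the palindrome CACGTG matches on both strands and is counted once. A match was present in 20 of the 33 members with a promoter entry, beside 25.16% of the 9484 tested genes with one and 18.49% of the 27025 genes of the table. The members were chosen partly as HIF targets, so a share above that of all genes can follow from the choice and is no result of these data. Of the 6 genes 5 have the following upstream sequences, 5′ to 3′ and ending 1 base before the start, with matches in capitals.
Slc2a1 (chr4:119108495-119108744, plus strand): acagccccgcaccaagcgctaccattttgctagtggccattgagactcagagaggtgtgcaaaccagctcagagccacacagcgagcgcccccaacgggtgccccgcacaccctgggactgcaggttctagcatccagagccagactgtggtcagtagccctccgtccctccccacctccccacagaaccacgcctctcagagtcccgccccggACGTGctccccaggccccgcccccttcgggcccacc
Hk2 (chr6:82774455-82774704, minus strand): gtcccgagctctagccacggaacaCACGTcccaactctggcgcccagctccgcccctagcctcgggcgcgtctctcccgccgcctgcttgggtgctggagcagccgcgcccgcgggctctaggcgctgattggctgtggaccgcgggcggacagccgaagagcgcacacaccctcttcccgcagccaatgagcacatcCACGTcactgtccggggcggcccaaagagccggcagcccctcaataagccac
Ldha (chr7:46845554-46845803, plus strand): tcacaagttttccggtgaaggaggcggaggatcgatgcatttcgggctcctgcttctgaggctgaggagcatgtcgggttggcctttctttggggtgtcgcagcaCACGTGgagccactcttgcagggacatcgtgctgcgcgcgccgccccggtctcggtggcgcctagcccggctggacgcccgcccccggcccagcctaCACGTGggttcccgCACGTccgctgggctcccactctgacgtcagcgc
Slc16a1 (chr3:104638414-104638663, plus strand): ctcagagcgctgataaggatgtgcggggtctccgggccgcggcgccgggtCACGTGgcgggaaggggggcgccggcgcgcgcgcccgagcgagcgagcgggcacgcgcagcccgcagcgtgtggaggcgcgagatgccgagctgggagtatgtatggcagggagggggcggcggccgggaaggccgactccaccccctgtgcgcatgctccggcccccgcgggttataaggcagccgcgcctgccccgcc
Car9 (chr4:43506776-43507025, plus strand): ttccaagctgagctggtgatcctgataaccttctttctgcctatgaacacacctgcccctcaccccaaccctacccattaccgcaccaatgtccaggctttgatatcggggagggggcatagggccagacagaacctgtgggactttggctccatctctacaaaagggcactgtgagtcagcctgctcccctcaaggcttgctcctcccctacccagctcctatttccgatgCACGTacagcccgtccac

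Car9 holds 1 match, beginning 18 bases before the start, and Slc2a1 holds 1 at 36 bases. Hk2 has a pair, at 226 and 52 bases. Ldha holds 3, at 145, 48 and 34 bases, of which the first and second are the palindrome CACGTG. A second annotated start of Ldha has no match in its upstream window, which is not shown. Slc16a1 has a single CACGTG at 200 bases. A match is a string of letters only and says nothing of binding in these cells. Members with other patterns hold matches too. Pfkm, which fell with EGF under control siRNA and rose with Arid1a siRNAs, has a CACGTG before a start. Bnip3, which fell with EGF under control siRNA, also has one. So do Pdk3, Pgk1 and the uncalled P4ha1 and Ankrd37 hold the core ACGTG. Aldoa has 3 annotated starts, and 2 of their upstream windows hold a match.

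Glucose enters through the transporter Slc2a1 (GLUT1) and is trapped by phosphorylation through the hexokinases Hk1 and Hk2. EGF raised Slc2a1 and Hk2 under either siRNA, and Arid1a siRNAs moved the hexokinases in opposite directions. Slc2a1 was at 32.8 and 41.4 CPM with control siRNA, 54.98, 52.6 and 60.1 CPM with control siRNA and EGF, 30.6, 29.9 and 30.9 CPM with Arid1a siRNAs, and 46.5, 47.9 and 49.2 CPM with both. Both EGF groups lay above both vehicle groups. Its log2 change with EGF was 0.60 ± 0.09 (adjusted p = 0.000179) under control siRNA and 0.65 ± 0.09 (adjusted p = 8.49e-05) under Arid1a siRNAs. Hk2, the inducible form, was at 16.3 and 22.8 CPM with control siRNA, 47.8, 44.9 and 49.3 CPM with control siRNA and EGF, 14.4, 13.5 and 12.3 CPM with Arid1a siRNAs, and 29.3, 29.03 and 32.2 CPM with both. The EGF libraries stood apart from their vehicle libraries under both siRNAs, and the Arid1a siRNA libraries lay below their controls. EGF changed Hk2 by 1.29 ± 0.12 (adjusted p = 1.73e-06) and 1.17 ± 0.12 (adjusted p = 5.97e-06), and Arid1a siRNAs changed it by -0.54 ± 0.13 (adjusted p = 0.00480) without and -0.65 ± 0.10 (adjusted p = 0.000134) with EGF.

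Hk1, the constitutive hexokinase, did not pass the test with EGF (0.07 ± 0.06 and 0.04 ± 0.06) and rose with Arid1a siRNAs by 0.42 ± 0.06 (adjusted p = 0.000132) and 0.39 ± 0.06 (adjusted p = 5.83e-05). Reads of Hk1 per read of Hk2 were 3.69 and 4.89 with control siRNA, 1.79 to 1.84 with EGF, 7.56 to 8.85 with Arid1a siRNAs and 3.46 to 4.03 with both. These ratios do not adjust for length and are read only between libraries. Slc2a1 fell with Arid1a siRNAs by -0.28 ± 0.10 (adjusted p = 0.0340) without EGF and -0.22 ± 0.08 (adjusted p = 0.0380) with EGF, and these calls were weak. The first was lost without control siRNA replicate 2 (log2 -0.11, adjusted p = 0.432), and without Arid1a siRNA replicates 1, 2 and 3 or Arid1a siRNA with EGF replicate 3 left out singly (adjusted p 0.0516 to 0.113), and with limma-voom, upper-quartile scaling or only the groups compared in the fit (adjusted p 0.0530 to 0.104). The second was lost without control siRNA with EGF replicate 3 (log2 -0.17, adjusted p = 0.157), and without Arid1a siRNA with EGF replicates 1, 2 and 3, control siRNA with EGF replicate 1 or Arid1a siRNA replicates 1 and 2 left out singly (adjusted p 0.0599 to 0.114), and with the replicate number as a block or upper-quartile scaling (adjusted p 0.0503 to 0.0898). For Hk2 the fall without EGF was lost without control siRNA replicate 2 (log2 -0.29, adjusted p = 0.0885).

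**Figure D2:**
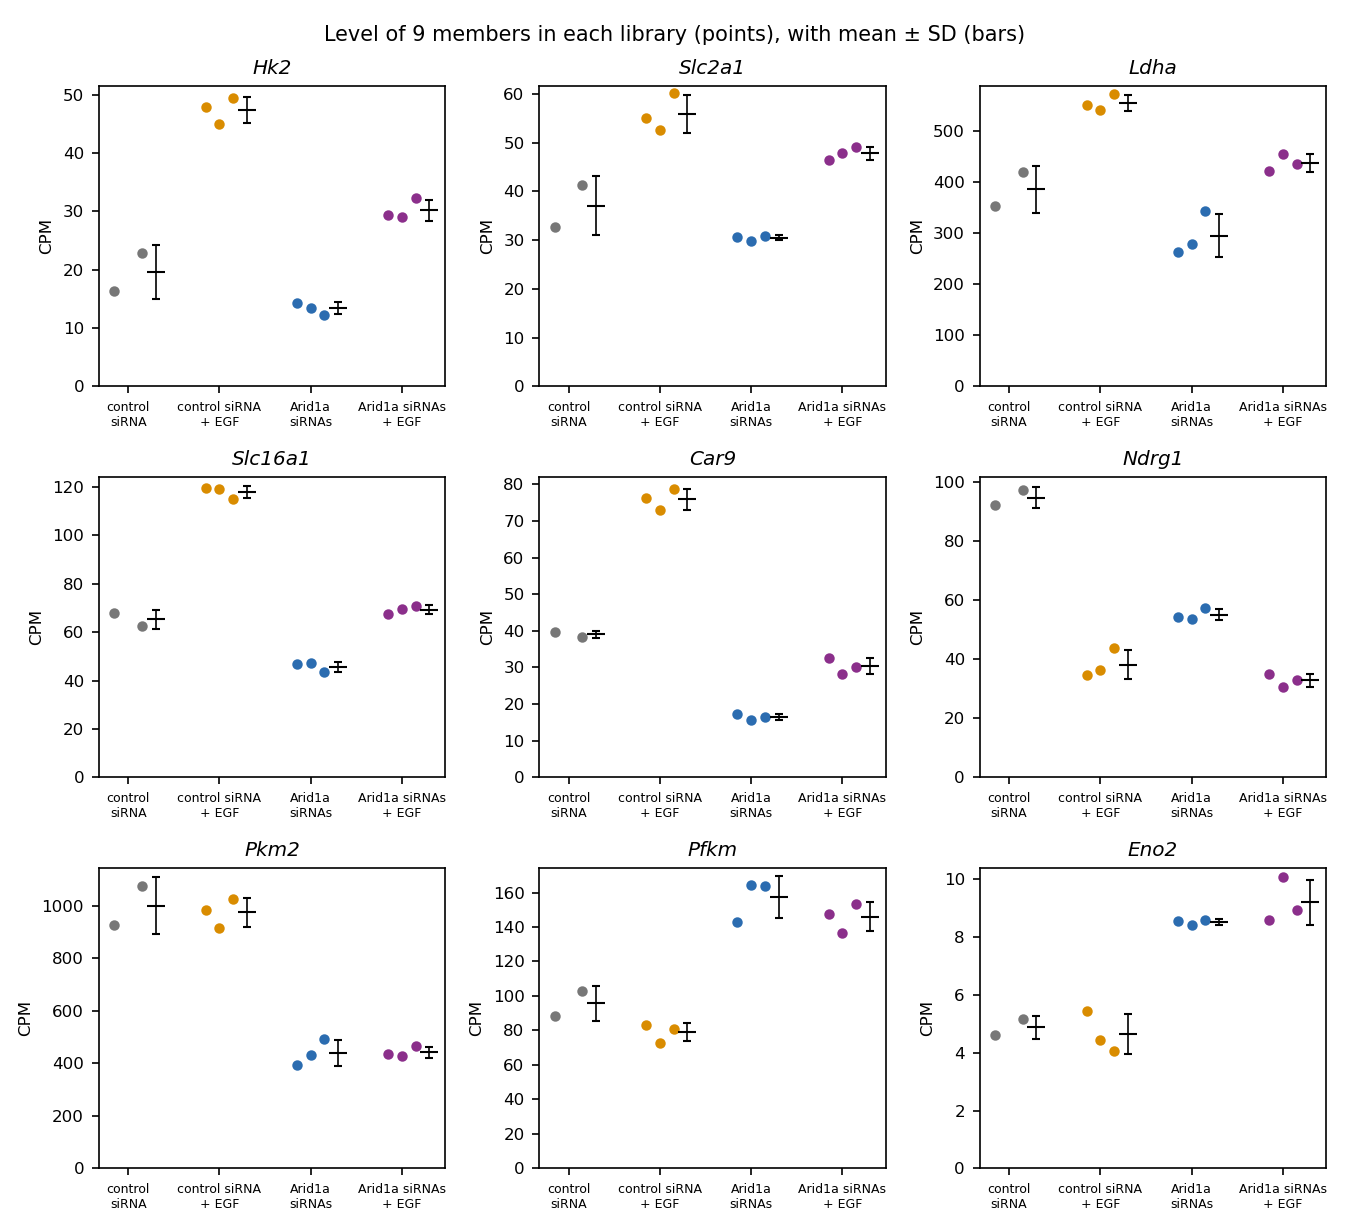
CPM (y axes, from 0) of 9 members in each of the 11 libraries (points) by group (x axis), with the mean ± SD (n = 2 for control siRNA, n = 3 for the others) beside them. Hk2, Slc2a1, Ldha, Slc16a1 and Car9 stand higher in both EGF groups than in the vehicle group of the same siRNA, and Pkm2 lies at 393 to 493 CPM in all 6 Arid1a siRNA libraries against 916 to 1076 CPM in the other 5.

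In upper glycolysis Gpi1, the glucose-6-phosphate isomerase, feeds phosphofructokinase, the main point of control, which is built from the Pfkl (liver), Pfkm (muscle) and Pfkp (platelet) subunits. Pfkm rose with Arid1a siRNAs, while the other subunits showed smaller changes. Pfkm was at 88.6 and 103 CPM with control siRNA, 83.1, 72.98 and 80.7 CPM with control siRNA and EGF, 143, 165 and 164 CPM with Arid1a siRNAs, and 147, 137 and 154 CPM with both. Every Arid1a siRNA library lay above every control siRNA library. The change was 0.72 ± 0.09 (adjusted p = 1.96e-05) without EGF and 0.89 ± 0.08 (adjusted p = 5.44e-07) with EGF. Reads of Pfkl per read of Pfkm fell from 3.73 to 4.17 in the control siRNA libraries to 1.95 to 2.28 in the Arid1a siRNA libraries. Pfkp rose with EGF under control siRNA by 0.34 ± 0.06 (adjusted p = 0.000332) and was lower with Arid1a siRNAs in the presence of EGF by -0.33 ± 0.05 (adjusted p = 0.000111).

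Smaller falls with EGF under control siRNA were called for Pfkl, -0.26 ± 0.09 (adjusted p = 0.0299), and Pfkm, -0.28 ± 0.09 (adjusted p = 0.0216). Pfkl lost its call without control siRNA replicate 2 (log2 -0.11, adjusted p = 0.389), and without control siRNA with EGF replicates 1 and 2 left out singly (adjusted p 0.0772 to 0.107), and with only the groups compared in the fit (adjusted p = 0.0659). Pfkm lost its call without control siRNA replicate 2 (log2 -0.17, adjusted p = 0.218), and without control siRNA with EGF replicate 2 (adjusted p = 0.0839). With Arid1a siRNAs without EGF, Pfkl was not called with all libraries. It was called lower there with the replicate number as a block (log2 -0.24, adjusted p = 0.0382) and without Arid1a siRNA replicate 3 (log2 -0.26, adjusted p = 0.0288). Without control siRNA replicate 1 its log2 change was -0.33. Gpi1, at 261 to 313 CPM, was called in no comparison with all libraries, and was called higher with EGF under Arid1a siRNAs without Arid1a siRNA replicate 3 (log2 0.16, adjusted p = 0.0352).

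Pfkfb3 and Pfkfb4 make and break fructose-2,6-bisphosphate, the strongest activator of phosphofructokinase, with Pfkfb3 favouring its synthesis. Pfkfb3 rose with EGF under both siRNAs, and Pfkfb4 rose with Arid1a siRNAs. Pfkfb3 was at 14.97 and 25.3 CPM with control siRNA, 29.3, 26.8 and 37.4 CPM with control siRNA and EGF, 12.96, 14.9 and 13.8 CPM with Arid1a siRNAs, and 24.4, 22.01 and 29.8 CPM with both. The 2 control siRNA libraries differed from each other more than replicate 2 differed from the lowest EGF library. EGF raised it by 0.65 ± 0.20 (adjusted p = 0.0241) under control siRNA and by 0.86 ± 0.19 (adjusted p = 0.00636) under Arid1a siRNAs. The first call was lost without control siRNA replicate 1 (log2 0.29, adjusted p = 0.267), and without control siRNA with EGF replicate 3 (adjusted p = 0.0797), and with no filter on low counts (adjusted p = 0.0633). With Arid1a siRNAs the change was -0.51 ± 0.21 (adjusted p = 0.0786) without EGF. It was called lower there by DESeq2 (log2 -0.52, adjusted p = 0.0383), with the replicate number as a block (log2 -0.60, adjusted p = 0.0340) and without control siRNA replicate 1 (log2 -0.85, adjusted p = 0.00405). With EGF the siRNA change was -0.30 ± 0.18 (adjusted p = 0.191), and it was called lower with the replicate block within these 2 groups (log2 -0.29, adjusted p = 0.000154).

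Pfkfb4, at 15.1 to 24.01 CPM, did not pass the test with EGF and rose with Arid1a siRNAs by 0.37 ± 0.11 (adjusted p = 0.0149) and 0.44 ± 0.10 (adjusted p = 0.00221). The call without EGF was lost without control siRNA replicate 2 (log2 0.32, adjusted p = 0.0891). Reads of Pfkfb3 per read of Pfkfb4 were 0.576 to 0.665 with Arid1a siRNAs alone and 0.923 to 1.53 with EGF added. They were 0.822 and 1.52 with control siRNA and 1.53 to 2.27 with control siRNA and EGF.

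The aldolases Aldoa and Aldoc split the sugar bisphosphate, and Tpi1 interconverts the products. Aldoa, at 443 to 718 CPM, rose with EGF by 0.21 ± 0.07 (adjusted p = 0.0388) under control siRNA and 0.29 ± 0.07 (adjusted p = 0.00501) under Arid1a siRNAs, and fell with Arid1a siRNAs by -0.34 ± 0.07 (adjusted p = 0.00223) and -0.25 ± 0.07 (adjusted p = 0.00548). Its rise under control siRNA was lost without control siRNA replicate 1 (log2 0.20, adjusted p = 0.132), and without control siRNA replicate 2 or control siRNA with EGF replicates 1, 2 and 3 left out singly (adjusted p 0.0600 to 0.104), and with upper-quartile scaling or the replicate number as a block (adjusted p 0.0523 to 0.0993). Aldoc, the form typical of brain, fell with EGF under control siRNA by -0.37 ± 0.09 (adjusted p = 0.00674) and with Arid1a siRNAs without EGF by -0.28 ± 0.09 (adjusted p = 0.0284). The first call was lost without control siRNA replicate 2 (log2 -0.25, adjusted p = 0.0908). The second was lost without control siRNA replicate 2 (log2 -0.16, adjusted p = 0.265), and without Arid1a siRNA replicates 1 and 2 left out singly (adjusted p 0.0983 to 0.144), and with upper-quartile scaling or only the groups compared in the fit (adjusted p 0.0790 to 0.105). With EGF under Arid1a siRNAs, Aldoc was called lower only without Arid1a siRNA replicate 1 (log2 -0.27, adjusted p = 0.0490). Tpi1, at 466 to 578 CPM, was not called. Its change with Arid1a siRNAs in the presence of EGF was 0.10 ± 0.07 (adjusted p = 0.282), and with the replicate block among these 2 groups the adjusted p was 0.00168.

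Pyruvate kinase, listed as Pkm2 (now Pkm), makes pyruvate and ATP in the last step of glycolysis. It showed the largest fall of a glycolytic member with Arid1a siRNAs and no called change with EGF. The counts cover the whole gene, so its M1 and M2 splice forms cannot be told apart. Pkm2 was at 925 and 1076 CPM with control siRNA, 983, 916 and 1025 CPM with control siRNA and EGF, 393, 431 and 493 CPM with Arid1a siRNAs, and 435, 426 and 464 CPM with both. All 6 Arid1a siRNA libraries lay below all 5 control siRNA libraries. The change was -1.19 ± 0.09 (adjusted p = 2.33e-07) without EGF and -1.14 ± 0.08 (adjusted p = 7.13e-08) with EGF, a 2.28-fold and a 2.21-fold lower level. EGF changed it by -0.04 ± 0.09 under control siRNA and 0.01 ± 0.08 under Arid1a siRNAs. Pkm2 took 0.0884% to 0.107% of all reads in the control siRNA libraries and 0.0410% to 0.0505% with Arid1a siRNAs. The other 23 glycolytic, pyruvate and lactate members took 0.271% to 0.306% and 0.254% to 0.301%.

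Enolase, 1 step earlier, has a ubiquitous form, Eno1, and a neuronal form, Eno2. Eno2 was at 4.60 and 5.16 CPM with control siRNA, 5.43, 4.44 and 4.07 CPM with control siRNA and EGF, 8.58, 8.42 and 8.61 CPM with Arid1a siRNAs, and 8.59, 10.1 and 8.95 CPM with both. The Arid1a siRNA libraries all lay above the control siRNA libraries. Eno2 rose by 0.81 ± 0.15 (adjusted p = 0.000582) without and 0.99 ± 0.13 (adjusted p = 3.05e-05) with EGF, and EGF changed it by -0.06 ± 0.16 and 0.11 ± 0.12. Pgam1, the phosphoglycerate mutase, was at 6.93 and 9.17 CPM with control siRNA, 7.97, 8.14 and 8.99 CPM with control siRNA and EGF, 5.13, 5.65 and 4.87 CPM with Arid1a siRNAs, and 5.92, 6.00 and 5.85 CPM with both. Its levels with Arid1a siRNAs lay below those with control siRNA in all libraries. Arid1a siRNAs lowered Pgam1 by -0.60 ± 0.15 (adjusted p = 0.00536) without EGF, a call that was lost without control siRNA replicate 2 (log2 -0.40, adjusted p = 0.0738), and by -0.50 ± 0.13 (adjusted p = 0.00670) with EGF.

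Pgk1, the phosphoglycerate kinase and a classic HIF target, was at 14.1 to 22.9 CPM and fell with Arid1a siRNAs by -0.42 ± 0.12 (adjusted p = 0.0147) without and -0.30 ± 0.11 (adjusted p = 0.0412) with EGF. The first call was lost without control siRNA replicate 2 (log2 -0.31, adjusted p = 0.114), and without Arid1a siRNA replicates 1 and 2 left out singly (adjusted p 0.0690 to 0.0694), and with only the groups compared in the fit (adjusted p = 0.0554). The second was lost without Arid1a siRNA with EGF replicate 3 (log2 -0.22, adjusted p = 0.166), and without control siRNA with EGF replicates 1, 2 and 3, Arid1a siRNA with EGF replicate 1 or Arid1a siRNA replicate 2 left out singly (adjusted p 0.0534 to 0.0951), and with the replicate number as a block or upper-quartile scaling (adjusted p 0.0607 to 0.0832). Gapdh had 39 to 91 reads (3.50 to 6.23 CPM) and Eno1 3 to 15 reads (0.215 to 0.846 CPM), and neither was called. With Arid1a siRNAs in the presence of EGF, Gapdh changed by -0.34 ± 0.14 (adjusted p = 0.0620), and its adjusted p with the replicate block among these 2 groups was 0.0436 and without Arid1a siRNA replicate 3 it was 0.0472. The deposited FPKM values do not show this fall. Their mean ± SD was 0.749 ± 0.112 with control siRNA and EGF and 0.824 ± 0.232 with both. The standard error of Eno1, 0.49 to 0.58 in the 4 comparisons, means that a change of that size was not detectable at this depth.

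The low levels of Gapdh and Eno1, enzymes that nearly every cell makes in bulk, were set beside their sequence. By the deposited FPKM values, which adjust for length, the mean over the 9 libraries with a matched column was 405 for Aldoa, 322 for Tpi1, 272 for Ldha and 249 for Pkm2. On the same scale it was 9.50 for Pgk1, 3.98 for Eno1, 3.40 for Pgam1 and 0.683 for Gapdh, which ranked 34 of 35. The raw counts put Gapdh (3.50 to 6.23 CPM) above Eno1 (0.215 to 0.846 CPM), the reverse order. Their longest coding transcripts have 1420 and 2027 bases. The reason for the reversal was not tested, and the ranks of these genes are uncertain. Tpi1 and Gapdh catalyse neighbouring steps of the pathway. In GENCODE vM21, 82.5% of the 50-base windows of Gapdh's longest coding transcript also occur in a transcript of another gene. These are 222 other genes, 213 of them annotated as pseudogenes. The share was 72.2% for Eno1, 67.96% for Pgk1, 62.5% for Bnip3 and 41.5% for Pgam1.

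Among the 4 members with the highest FPKM, the shared part was 13.5% for Aldoa, 7.51% for Tpi1, 16.6% for Ldha and 34.4% for Pkm2. It was 0% for Hk2, Pfkm, Slc16a1, Pdk1 and Epas1. How reads that fit several places were counted, and the read length, are not given in the sources used here. The part of shared sequence in these levels was not tested, and the levels of Gapdh, Eno1, Pgk1, Pgam1 and Bnip3 are uncertain.

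**Figure D3:**
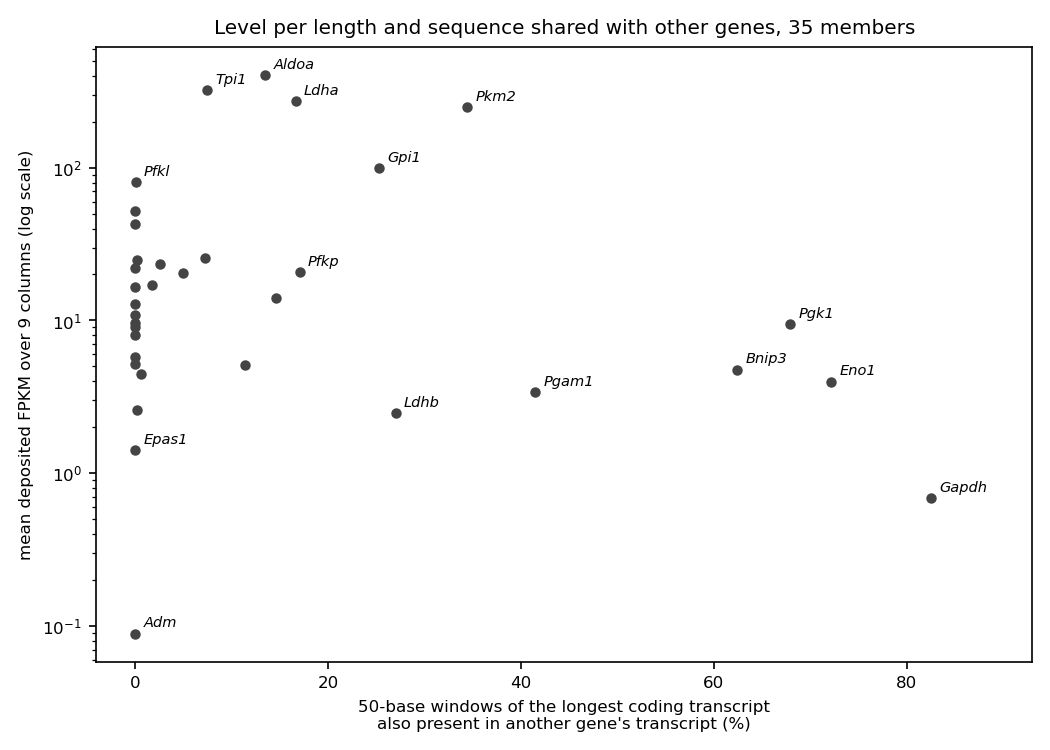
Mean deposited FPKM over 9 libraries (y axis, log scale) against the percentage of 50-base windows that also occur in another gene's transcript (x axis), 1 point for each of the 35 members. Gapdh, Eno1, Pgk1, Bnip3 and Pgam1 stand at the right with FPKM of 0.683 to 9.50, and Pkm2 at 34.4% has 249.

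Lactate dehydrogenase (Ldha, with Ldhb the heart form) reduces pyruvate to lactate, which leaves through the monocarboxylate carriers Slc16a1 (MCT1) and Slc16a3 (MCT4). The kinases Pdk1 and Pdk3 switch off pyruvate dehydrogenase and so hold back the oxidation of pyruvate in the mitochondrion. Ldha and Slc16a1 rose with EGF and fell with Arid1a siRNAs, and the 2 kinases moved apart with Arid1a siRNAs. Ldha was at 353 and 418 CPM with control siRNA, 549.6, 541 and 571 CPM with control siRNA and EGF, 262, 279 and 343 CPM with Arid1a siRNAs, and 421, 455 and 435 CPM with both. Each EGF group lay above its vehicle group, and each Arid1a siRNA group lay below its control. The EGF changes were 0.52 ± 0.10 (adjusted p = 0.000763) and 0.57 ± 0.09 (adjusted p = 0.000286), and the siRNA changes were -0.39 ± 0.10 (adjusted p = 0.00552) without and -0.34 ± 0.09 (adjusted p = 0.00456) with EGF. The siRNA call without EGF was lost without control siRNA replicate 2 (log2 -0.26, adjusted p = 0.0809).

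Slc16a1 was at 68.1 and 62.5 CPM with control siRNA, 119, 119 and 115 CPM with control siRNA and EGF, 46.6, 47.1 and 43.4 CPM with Arid1a siRNAs, and 67.4, 69.7 and 70.8 CPM with both. The libraries of the 4 groups overlapped only between control siRNA with vehicle and Arid1a siRNAs with EGF. EGF raised Slc16a1 by 0.85 ± 0.06 (adjusted p = 2.15e-07) under control siRNA and 0.60 ± 0.06 (adjusted p = 7.15e-06) under Arid1a siRNAs, and the siRNAs lowered it by -0.52 ± 0.07 (adjusted p = 3.12e-05) without and -0.77 ± 0.06 (adjusted p = 1.14e-07) with EGF. Slc16a3, the carrier of strongly glycolytic cells, was at 22.3 and 40.3 CPM with control siRNA, 23.2, 18.6 and 32.8 CPM with control siRNA and EGF, 13.1, 15.4 and 21.5 CPM with Arid1a siRNAs, and 17.9, 18.6 and 19.3 CPM with both. Its 2 control siRNA libraries lay far apart, and the lower of them was just above the highest Arid1a siRNA library. The fall with Arid1a siRNAs without EGF was -0.89 ± 0.28 (adjusted p = 0.0280) and was lost without control siRNA replicate 2 (log2 -0.42, adjusted p = 0.276), and without Arid1a siRNA replicates 1 and 2 left out singly (adjusted p 0.0807 to 0.0918), and with no filter on low counts (adjusted p = 0.0921). With EGF the change was -0.41 ± 0.26 (adjusted p = 0.220), and with the replicate block among these 2 groups the adjusted p was 9.72e-05. Replicate 2 was at 18.6 CPM in each of these groups, so the blocked value does not mean a fall in every same-numbered pair.

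Pdk1, a HIF target, was at 41.8 and 67.8 CPM with control siRNA, 54.98, 42.9 and 63.3 CPM with control siRNA and EGF, 73.02, 80.2 and 83.2 CPM with Arid1a siRNAs, and 82.1, 73.6 and 83.2 CPM with both. Arid1a siRNA libraries lay above control siRNA libraries, of which control siRNA replicate 2 was the highest. Pdk1 rose with Arid1a siRNAs by 0.54 ± 0.19 (adjusted p = 0.0410) without EGF and 0.57 ± 0.17 (adjusted p = 0.0150) with EGF. The call without EGF was lost without control siRNA replicate 1 (log2 0.22, adjusted p = 0.324), and without Arid1a siRNA replicates 2 and 3 or Arid1a siRNA with EGF replicates 1 and 3 left out singly (adjusted p 0.0514 to 0.0953), and with the replicate number as a block or no filter on low counts (adjusted p 0.0634 to 0.126). The call with EGF was lost without control siRNA with EGF replicate 2 (log2 0.43, adjusted p = 0.0540), and with no filter on low counts (adjusted p = 0.0708). Pdk3 was at 27.6 and 27.6 CPM with control siRNA, 21.6, 22.3 and 22.1 CPM with control siRNA and EGF, 16.9, 16.2 and 16.5 CPM with Arid1a siRNAs, and 16.1, 18.4 and 15.3 CPM with both. Its Arid1a siRNA libraries all lay below its control siRNA libraries. Pdk3 fell by -0.74 ± 0.09 (adjusted p = 2.43e-05) without and -0.40 ± 0.09 (adjusted p = 0.00134) with EGF, and EGF lowered it under control siRNA by -0.33 ± 0.09 (adjusted p = 0.0100) but changed it by 0.01 ± 0.09 under Arid1a siRNAs. The difference between these responses did not pass the test (0.34 ± 0.13, adjusted p = 0.335). Reads of Pdk1 per read of Pdk3 were 1.51 to 2.87 with control siRNA and 3.99 to 5.44 with Arid1a siRNAs. Ldhb, at 1.83 to 3.87 CPM, was not called by edgeR, and its change with EGF under Arid1a siRNAs was -0.63 ± 0.23 (adjusted p = 0.0639). This change was called lower without Arid1a siRNA with EGF replicate 2 (log2 -1.05, adjusted p = 0.00226), by limma-voom (log2 -0.71, adjusted p = 0.0423) and from the FPKM table at a pseudocount of 1 (log2 -0.50, adjusted p = 0.0495). With Arid1a siRNAs in the presence of EGF, Ldhb was called lower without that library (log2 -0.56, adjusted p = 0.0468).

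Of the HIF alpha subunits and their hydroxylases, Hif1a, Egln1 and Egln3 fell with Arid1a siRNAs without EGF. Hif1a, at 101 to 158 CPM, fell with Arid1a siRNAs by -0.27 ± 0.08 (adjusted p = 0.0178) without EGF, lost without control siRNA replicate 2 (log2 -0.22, adjusted p = 0.101), and with the replicate number as a block, upper-quartile scaling or only the groups compared in the fit (adjusted p 0.0530 to 0.0663), and by -0.29 ± 0.07 (adjusted p = 0.00490) with EGF. EGF changed it by 0.12 ± 0.08 and 0.10 ± 0.07. HIF is controlled mainly through the stability of the protein, which RNA does not show. Epas1 (HIF-2 alpha) was at 6.73 and 5.95 CPM with control siRNA, 7.97, 5.37 and 8.30 CPM with control siRNA and EGF, 6.62, 7.37 and 6.61 CPM with Arid1a siRNAs, and 10.6, 7.60 and 12.5 CPM with both. Only Arid1a siRNA with EGF replicates 1 and 3 exceeded 10 CPM. It was called higher with EGF under Arid1a siRNAs, 0.56 ± 0.19 (adjusted p = 0.0440), and with Arid1a siRNAs in the presence of EGF, 0.51 ± 0.18 (adjusted p = 0.0341), where the libraries overlapped. The first call was lost without Arid1a siRNA with EGF replicate 3 (log2 0.39, adjusted p = 0.197), and without Arid1a siRNA replicates 1, 2 and 3, Arid1a siRNA with EGF replicate 1 or control siRNA with EGF replicate 1 left out singly (adjusted p 0.0538 to 0.117), and with upper-quartile scaling, the replicate block within the 2 groups, limma-voom, the FPKM table at a pseudocount of 1 or the FPKM table at a pseudocount of 0.1 (adjusted p 0.0501 to 0.101). The second was lost without control siRNA with EGF replicate 2 (log2 0.32, adjusted p = 0.163), and without Arid1a siRNA with EGF replicates 1 and 3 left out singly (adjusted p 0.0918 to 0.160), and with the FPKM table at a pseudocount of 1 or the FPKM table at a pseudocount of 0.1 (adjusted p 0.0695 to 0.0831).

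Egln1, the main oxygen sensor of the pathway, was at 31.00 to 46.6 CPM and fell with Arid1a siRNAs by -0.45 ± 0.08 (adjusted p = 0.000644) without EGF and by -0.45 ± 0.07 (adjusted p = 0.000167) with EGF. EGF changed it by 0.02 ± 0.08 and 0.01 ± 0.08. Egln3, a hydroxylase that HIF itself induces, was at 29.8 and 30.8 CPM with control siRNA, 36.1, 30.8 and 36.3 CPM with control siRNA and EGF, 21.6, 22.9 and 22.7 CPM with Arid1a siRNAs, and 32.05, 31.4 and 33.2 CPM with both. With Arid1a siRNAs alone it lay below all other groups. Egln3 fell with Arid1a siRNAs without EGF by -0.43 ± 0.09 (adjusted p = 0.00161) and rose with EGF under Arid1a siRNAs by 0.52 ± 0.08 (adjusted p = 0.000331). Under control siRNA the EGF change was 0.18 ± 0.09 (adjusted p = 0.120), called without control siRNA with EGF replicate 2 (log2 0.26, adjusted p = 0.0324), and the difference of the 2 EGF responses was 0.34 ± 0.12 (adjusted p = 0.289).

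Among the hypoxia targets, Car9 rose and Ndrg1 fell with EGF under both siRNAs. Car9, the membrane carbonic anhydrase that helps glycolytic cells export acid, was at 39.7 and 38.3 CPM with control siRNA, 76.3, 72.9 and 78.6 CPM with control siRNA and EGF, 17.3, 15.5 and 16.4 CPM with Arid1a siRNAs, and 32.6, 28.3 and 30.03 CPM with both. The 4 groups did not overlap in any pair. EGF raised Car9 by 0.96 ± 0.08 (adjusted p = 4.22e-07) under control siRNA and 0.89 ± 0.08 (adjusted p = 2.26e-06) under Arid1a siRNAs. Arid1a siRNAs lowered it by -1.26 ± 0.08 (adjusted p = 9.78e-08) without EGF, 2.39-fold, and by -1.32 ± 0.07 (adjusted p = 7.21e-09) with EGF, 2.50-fold. These 4 calls held with any library left out.

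Ndrg1, a stress-responsive growth suppressor induced by HIF, was at 92.03 and 97.1 CPM with control siRNA, 34.5, 36.2 and 43.7 CPM with control siRNA and EGF, 54.3, 53.6 and 57.2 CPM with Arid1a siRNAs, and 35.1, 30.7 and 32.8 CPM with both. Control siRNA with vehicle stood above all other groups, and the 2 EGF groups overlapped. EGF lowered Ndrg1 by -1.31 ± 0.09 (adjusted p = 7.12e-08) under control siRNA and by -0.74 ± 0.09 (adjusted p = 3.01e-05) under Arid1a siRNAs. It was lower with Arid1a siRNAs by -0.78 ± 0.09 (adjusted p = 1.14e-05) without EGF, and with EGF the change was -0.21 ± 0.09 (adjusted p = 0.0613). With the replicate block among the 2 groups with EGF that adjusted p was 0.00409, without control siRNA with EGF replicate 1 it was 0.0288, and with no filter on low counts 0.0328. Replicate 1 was at 34.5 CPM with control siRNA and EGF and 35.1 CPM with both, so not every same-numbered pair fell. The EGF responses differed by 0.57 ± 0.13 (adjusted p = 0.0472), and Ndrg1 was the 1 member called for this difference. That call was lost without Arid1a siRNA with EGF replicate 1 (log2 0.52, adjusted p = 0.159), and without Arid1a siRNA replicates 1 and 2, control siRNA with EGF replicates 1 and 2, Arid1a siRNA with EGF replicate 3 or control siRNA replicates 1 and 2 left out singly (adjusted p 0.0856 to 0.144), and with upper-quartile scaling, RLE scaling or the replicate number as a block (adjusted p 0.0552 to 0.0753). RefSeq's promoter table has no entry matched to Ndrg1.

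**Figure D4:**
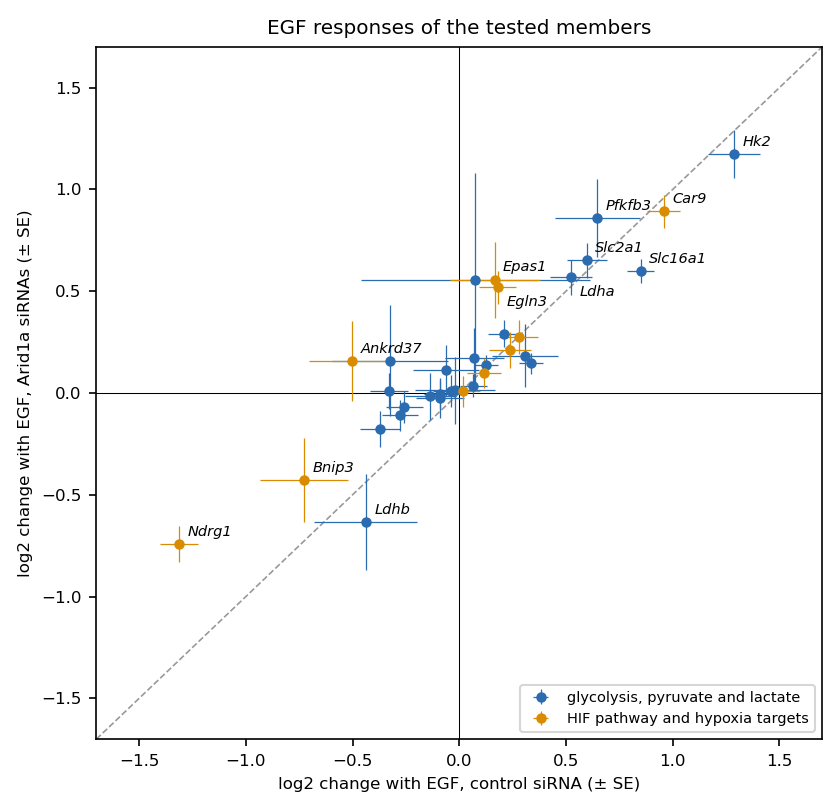
Log2 change with EGF under Arid1a siRNAs (y axis) against that under control siRNA (x axis), each ± SE, for the 34 tested members; the dashed line marks equal responses, and the 2 axes share no library. Hk2, Car9 and Slc16a1 lie at the upper right, and Ndrg1 lies at -1.31 on the x axis and -0.74 on the y axis.

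Bnip3, a mitochondrial protein of mitophagy and cell death, was at 11.02 and 17.5 CPM with control siRNA, 8.26, 6.66 and 10.8 CPM with control siRNA and EGF, 7.74, 9.71 and 10.7 CPM with Arid1a siRNAs, and 7.40, 6.73 and 6.86 CPM with both. Control siRNA replicate 2 was the highest library. EGF lowered it by -0.73 ± 0.20 (adjusted p = 0.0128) under control siRNA and Arid1a siRNAs lowered it by -0.58 ± 0.21 (adjusted p = 0.0381) without EGF. The EGF call was lost without control siRNA replicate 2 (log2 -0.38, adjusted p = 0.184), and without control siRNA with EGF replicate 2 (adjusted p = 0.0532). The siRNA call was lost without control siRNA replicate 2 (log2 -0.23, adjusted p = 0.432), and without Arid1a siRNA replicates 1 and 2 or Arid1a siRNA with EGF replicate 3 left out singly (adjusted p 0.0624 to 0.144), and with only the groups compared in the fit, limma-voom or upper-quartile scaling (adjusted p 0.0568 to 0.0583). With EGF under Arid1a siRNAs, Bnip3 was called lower only with just the groups compared in the fit (log2 -0.43, adjusted p = 0.0441). Vegfa, the angiogenic growth factor, was at 67.4 to 100.4 CPM and rose with EGF by 0.28 ± 0.09 (adjusted p = 0.0275) under control siRNA and 0.28 ± 0.08 (adjusted p = 0.0262) under Arid1a siRNAs. The first call was lost without control siRNA replicate 1 (log2 0.11, adjusted p = 0.418), and without control siRNA with EGF replicates 1 and 3 left out singly (adjusted p 0.0556 to 0.112), and with only the groups compared in the fit or the replicate number as a block (adjusted p 0.0596 to 0.0738). The second was lost without Arid1a siRNA with EGF replicate 3 (log2 0.24, adjusted p = 0.109), and without Arid1a siRNA replicates 1 and 2 or Arid1a siRNA with EGF replicate 1 left out singly (adjusted p 0.0564 to 0.104). P4ha1, a collagen prolyl hydroxylase, at 78.5 to 112 CPM, and Ankrd37, at 2.70 to 5.92 CPM, were not called. Their changes with EGF under control siRNA were 0.24 ± 0.10 (adjusted p = 0.0716) and -0.50 ± 0.20 (adjusted p = 0.0665). P4ha1 was called higher in that comparison without control siRNA replicate 2 (log2 0.37, adjusted p = 0.0210), without Arid1a siRNA replicate 3 (log2 0.24, adjusted p = 0.0363) and with no filter on low counts (log2 0.26, adjusted p = 0.0396), and with EGF under Arid1a siRNAs without Arid1a siRNA replicate 3 (log2 0.30, adjusted p = 0.0208). Ankrd37 was called lower with EGF under control siRNA without Arid1a siRNA replicate 1 (log2 -0.50, adjusted p = 0.0309) or 3 (log2 -0.50, adjusted p = 0.0377), and with Arid1a siRNAs without EGF when Arid1a siRNA replicate 3 was left out (log2 -0.65, adjusted p = 0.0225).

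Of the 2 EGF comparisons, which share no library, 8 members rose in both, out of 9 that rose under control siRNA and 10 under Arid1a siRNAs. Over all genes, 1480 rose in both, which is 66.2% of those risen under control siRNA and 85.4% of those risen under Arid1a siRNAs. The 8 were Slc2a1, Hk2, Pfkfb3, Aldoa, Ldha, Slc16a1, Car9 and Vegfa. Ndrg1 was the 1 member that fell in both, of 6 under control siRNA and 1 under Arid1a siRNAs, and over all genes 1182 fell in both, which is 47.1% and 85.3% of those fallen. Of the 2 siRNA comparisons, which also share no library, 5 members rose in both (of 5 and 6) and 12 fell in both (of 17 and 13). Over all genes the shares were 83% and 65.7% for rises and 79% and 68.5% for falls. Hk1, Pfkm, Pfkfb4, Eno2 and Pdk1 were those that rose in both. No member was called in opposite directions in the paired comparisons.

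Other genes of these pathways were counted from lists written with earlier results of the data known. Beside the counts of each list stand the shares of all genes. With EGF 16.8% rose and 18.8% fell under control siRNA, and 13% and 10.4% under Arid1a siRNAs. With Arid1a siRNAs 18.8% rose and 20.1% fell without EGF, and 23.7% and 23.2% with it. Of 19 tested further genes of glycolysis and pyruvate metabolism, 4 rose and 2 fell with EGF under control siRNA, and 4 rose and 1 fell under Arid1a siRNAs. With Arid1a siRNAs 3 rose and 0 fell without EGF in edgeR (2 were lower at an unadjusted p under 0.05, 0 by DESeq2 or limma-voom), and 3 rose and 3 fell with it. Pklr, the liver and red cell pyruvate kinase, was at 43.8 and 43.8 CPM with control siRNA, 37.1, 35.2 and 34.5 CPM with control siRNA and EGF, 66.3, 68.5 and 74.3 CPM with Arid1a siRNAs, and 62.5, 63.2 and 61.7 CPM with both. All Arid1a siRNA libraries lay above all control siRNA libraries, the reverse of Pkm2. It rose by 0.67 ± 0.07 (adjusted p = 5.08e-06) without and 0.81 ± 0.06 (adjusted p = 1.78e-07) with EGF. Bpgm, which diverts glycolysis to 2,3-bisphosphoglycerate, rose with EGF by 0.58 ± 0.07 (adjusted p = 3.05e-05) and 0.46 ± 0.07 (adjusted p = 0.000191) and was lower with Arid1a siRNAs in the presence of EGF by -0.28 ± 0.07 (adjusted p = 0.00322). Pdk2, another pyruvate dehydrogenase kinase, fell with EGF by -0.78 ± 0.15 (adjusted p = 0.000764) and -0.75 ± 0.14 (adjusted p = 0.00145).

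Pdha1, a subunit of pyruvate dehydrogenase, rose with EGF by 0.39 ± 0.06 (adjusted p = 0.000173) under control siRNA and 0.22 ± 0.06 (adjusted p = 0.0102) under Arid1a siRNAs, the latter lost without Arid1a siRNA replicate 2 (log2 0.18, adjusted p = 0.0625), and without Arid1a siRNA with EGF replicate 3 (adjusted p = 0.0515), and with the replicate block within the 2 groups (adjusted p = 0.0915), and was lower with Arid1a siRNAs in the presence of EGF by -0.20 ± 0.05 (adjusted p = 0.00713). Dlat, a further subunit of that complex, rose with Arid1a siRNAs without EGF by 0.40 ± 0.08 (adjusted p = 0.00201). Bsg, the chaperone of the lactate carriers, was called in that comparison at 0.19 ± 0.07 (adjusted p = 0.0475), a call lost without control siRNA replicate 2 (log2 0.15, adjusted p = 0.233), and without Arid1a siRNA replicate 3, control siRNA with EGF replicates 1, 2 and 3, Arid1a siRNA with EGF replicate 1 or control siRNA replicate 1 left out singly (adjusted p 0.0525 to 0.127), and with the replicate number as a block or only the groups compared in the fit (adjusted p 0.120 to 0.134).

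Of 33 tested further HIF pathway genes and targets, 10 rose and 8 fell with EGF under control siRNA, 9 rose and 4 fell under Arid1a siRNAs, 10 rose and 9 fell with Arid1a siRNAs without EGF, and 10 rose and 11 fell with EGF. Stc1, a secreted glycoprotein hormone, was at 23.3 and 22.8 CPM with control siRNA, 80.7, 80.01 and 85.6 CPM with control siRNA and EGF, 13.9, 10.9 and 11.7 CPM with Arid1a siRNAs, and 29.02, 27.3 and 28.5 CPM with both. No pair of groups overlapped. Its EGF changes were 1.83 ± 0.09 (adjusted p = 2.01e-09) and 1.23 ± 0.09 (adjusted p = 2.77e-07), and its siRNA changes were -0.93 ± 0.10 (adjusted p = 5.42e-06) without and -1.54 ± 0.08 (adjusted p = 4.33e-09) with EGF. The EGF response was smaller with Arid1a siRNAs by -0.60 ± 0.13 (adjusted p = 0.0370), a call lost without control siRNA with EGF replicate 3 (log2 -0.57, adjusted p = 0.108), and without control siRNA replicates 1 and 2, Arid1a siRNA replicate 1, control siRNA with EGF replicates 1 and 2 or Arid1a siRNA with EGF replicates 1, 2 and 3 left out singly (adjusted p 0.0586 to 0.0980), and with the replicate number as a block (adjusted p = 0.0962). Angptl4, an inhibitor of lipoprotein lipase, was at 6.02 and 4.15 CPM with control siRNA, 4.78, 4.07 and 6.53 CPM with control siRNA and EGF, 33.3, 27.8 and 26.1 CPM with Arid1a siRNAs, and 12.6, 15.2 and 12.4 CPM with both. It stood high in the libraries with Arid1a siRNAs alone, at 2.48 ± 0.19 (adjusted p = 3.22e-07), and EGF lowered it there by -1.11 ± 0.15 (adjusted p = 9.14e-05). Hmox1, the haem-degrading oxygenase, fell with Arid1a siRNAs by -1.31 ± 0.11 (adjusted p = 7.43e-07) and -1.14 ± 0.10 (adjusted p = 7.59e-07).

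Car12, another membrane carbonic anhydrase, rose with EGF under control siRNA from 1.47 and 1.65 CPM to 7.39, 5.43 and 7.30 CPM (adjusted p = 3.43e-06). Tfrc, the transferrin receptor, rose in the same comparison by 0.48 ± 0.06 (adjusted p = 2.39e-05), and Stc2, the paralogue of Stc1, rose with EGF under Arid1a siRNAs by 0.66 ± 0.10 (adjusted p = 0.000215). P4ha2, a collagen prolyl hydroxylase, was higher with Arid1a siRNAs in the presence of EGF by 0.58 ± 0.07 (adjusted p = 7.47e-06).

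In the pentose phosphate pathway, which branches off after hexokinase, 3 of 8 tested genes rose and 1 fell with EGF under control siRNA, and 4 rose and 0 fell under Arid1a siRNAs in edgeR (0 also at an unadjusted p under 0.05, by DESeq2 and by limma-voom). With Arid1a siRNAs 2 rose and 1 fell without EGF, and 4 rose and 1 fell with it. H6pd, the hexose dehydrogenase of the endoplasmic reticulum, rose with EGF under control siRNA by 0.60 ± 0.08 (adjusted p = 4.22e-05). The transketolase Tkt rose by 0.26 ± 0.07 (adjusted p = 0.00961) in the same comparison, a call lost without control siRNA replicate 1 (log2 0.19, adjusted p = 0.112), and by 0.25 ± 0.06 (adjusted p = 0.00976) with EGF under Arid1a siRNAs, a call lost without Arid1a siRNA replicate 1 (log2 0.19, adjusted p = 0.0560), and with the replicate block within the 2 groups (adjusted p = 0.0572). Rpe, an epimerase of the pathway, was lower with Arid1a siRNAs without EGF by -0.34 ± 0.08 (adjusted p = 0.00247). Taldo1, the transaldolase, was higher with Arid1a siRNAs in the presence of EGF by 0.25 ± 0.07 (adjusted p = 0.00604).

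Of 4 tested genes of gluconeogenesis, 0 were called with EGF under control siRNA by edgeR (0 also at an unadjusted p under 0.05, by DESeq2 and by limma-voom), 1 fell with EGF under Arid1a siRNAs, 1 rose with Arid1a siRNAs without EGF, and 2 rose and 1 fell with EGF. Pck2, the mitochondrial phosphoenolpyruvate carboxykinase, was at 137 and 154 CPM with control siRNA, 134, 127 and 142 CPM with control siRNA and EGF, 188, 215 and 230.4 CPM with Arid1a siRNAs, and 241, 240.3 and 237 CPM with both. The Arid1a siRNA libraries lay above all control siRNA libraries. Pck2 rose by 0.54 ± 0.08 (adjusted p = 0.000146) without and 0.84 ± 0.07 (adjusted p = 5.14e-07) with EGF. Pcx, the pyruvate carboxylase, was lower with Arid1a siRNAs in the presence of EGF by -0.35 ± 0.08 (adjusted p = 0.00159). G6pc, at 0.0617 to 1.32 CPM, was called higher in that comparison (adjusted p = 0.0240), and the call was lost without Arid1a siRNA with EGF replicate 2 (log2 1.04, adjusted p = 0.223), and without control siRNA with EGF replicates 2 and 3 left out singly (adjusted p 0.0607 to 0.0978), and with the FPKM table at a pseudocount of 0.1 or the FPKM table at a pseudocount of 1 (adjusted p 0.0564 to 0.101).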

How the data were processed

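RNA of 11 libraries was prepared with a TruSeq v2 kit without strand information, so reads of overlapping antisense genes cannot be told apart. Per the submitters' processing notes, the authors used TopHat2 2.1.1, HTSeq 0.9.1, Cuffnorm 2.2.1.2 and Cuffdiff 2.2.1.5 with the mouse build mm9. The annotation, the counting settings and the read length are not given in the sources used here. The deposited count files hold raw whole-number counts per gene symbol for each library, with no normalization. The authors' deposited FPKM table gave levels per length from 9 columns, matched by group. Its 3 control siRNA columns could not be matched to the 2 libraries and were not used.

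Of 23284 genes, edgeR's filterByExpr retained 13343 (at least 10 reads in enough libraries and 15 in all). Counts were scaled with TMM and fitted over all 11 libraries with 4 group means by edgeR 4.0.16's quasi-likelihood method (limma 3.58.1, R 4.3.3; 7 residual degrees of freedom). The script was tested on simulated data. Called means a two-sided Benjamini-Hochberg adjusted p under 0.05 over all tested genes. Each ± on a log2 change is 1 standard error. DESeq2 1.42.0, limma-voom, other scaling factors, no filter, the FPKM table (log2 with a pseudocount of 0.1 or 1), a replicate block, only the groups compared, and each library left out were alternatives, and 2 were added after seeing the data: edgeR's newer dispersion method, and the block within 2 groups. That block within 2 groups leaves few residual degrees of freedom, so its p-values are less certain.

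The members and lists were chosen with earlier results of these data known. Values in every library are given where a member was called with an absolute log2 change of at least 0.5 and no overlap of the groups' libraries. Of the other pathway lists, genes are drawn from the 3 called with the smallest p in each comparison, and some of their values in the other comparisons were chosen after viewing them. Replicate numbers come from the labels. Between the 2 groups with EGF the deviations of same-numbered libraries from their group means correlated at 0.16 to 0.38 in all 3 pairs (-0.24 to 0.10 for unlike numbers). These libraries may be paired by number, but the main fit has no pairing, and its values for Arid1a siRNAs with EGF are unpaired. The blocked value is given beside them where it changes a call. Precision is limited by 2 or 3 libraries a group. Replicates of a group differed beyond sampling noise (chi-square per degree of freedom 1.57 to 10.9, the highest between the control siRNA libraries), so none was counted as a copy. Promoter sequences and coordinates are RefSeq's, GRCm38.p6, a later build than that of the counts.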

Additional observations from a re-analysis of the deposited data

Results flagged for a closer look

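The EGF response of Ndrg1 differed between the siRNAs by a test of the difference itself (edgeR interaction term): it was higher by 0.57 ± 0.13 on the log2 scale under Arid1a siRNAs, where EGF lowered Ndrg1 by 0.74, than under control siRNA, where EGF lowered it by 1.31 (adjusted p = 0.0472). All 3 EGF libraries lay below all vehicle libraries under each siRNA.

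Stc1, a HIF pathway gene outside the 35, was flagged by the same test, with a response lower by 0.60 on the log2 scale under Arid1a siRNAs (-0.60 ± 0.13, adjusted p = 0.0370). EGF raised it by 1.83 under control siRNA and by 1.23 under Arid1a siRNAs. With the replicate number as a block, the adjusted p was 0.0753 for Ndrg1 and 0.0962 for Stc1. Both calls were also lost with several single libraries left out, as given beside the values above.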

How the results depend on the processing

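Of 68 called member results, 43 were called in every alternative run, 25 were lost in at least 1, and 17 uncalled results became called in at least 1. None changed direction, apart from sign changes of results called under neither setting, which were not counted. Of 44 results of other genes and of Arid1a, 30 were called in every alternative. Leaving out each library in turn, the members called ranged from 11 to 17 for EGF with control siRNA, 9 to 12 for EGF with Arid1a siRNAs, 12 to 23 for Arid1a siRNAs without EGF, 16 to 20 for Arid1a siRNAs with EGF, and 0 to 1 for the difference of the EGF responses. The 12 came without control siRNA replicate 2 (4 higher, 8 lower). For these runs the shares of all genes called were not counted, so the ranges cannot be set against all genes. The difference counted 0 members with the replicate block, with RLE factors and with upper-quartile factors, where Ndrg1 had adjusted p = 0.0753, 0.0573 and 0.0552. Leaving out single libraries raised the adjusted p of Ndrg1 to at most 0.159, and the cause was not tested.

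With the replicate block, 13, 11, 22 and 17 members were called for EGF with control siRNA, EGF with Arid1a siRNAs, Arid1a siRNAs without EGF and Arid1a siRNAs with EGF, against 15, 11, 22 and 19 without it. Within only the 2 groups compared, the block gave 24 for Arid1a siRNAs with EGF and 10 for EGF with Arid1a siRNAs. The shares of all genes called in these block fits were not counted, so the counts cannot be set against all genes. In the other 3 comparisons pairing by number is not known. Same-number deviations correlated at -0.46 and -0.23 for EGF with control siRNA (-0.27 to 0.46 for unlike numbers). They correlated at 0.05 and 0.39 for Arid1a siRNAs without EGF (-0.39 to 0.27), and at -0.38 to 0.08 for EGF with Arid1a siRNAs (-0.28 to 0.35). Deviations of the 2 control siRNA libraries mirror each other, so values that use them cannot settle pairing. With 2 control siRNA libraries, leaving 1 out leaves a lone library that is assumed to vary like the other groups. Depth limits Eno1 (3 to 15 reads) and Adm (0 to 7 reads).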
